A study of Mus musculus with 10 samples.

Results

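The APP secretases are the proteases that cut the beta-amyloid precursor protein, and 9 of their genes were read in the cerebral cortex of mice with and without the full-length form of FE65, an adaptor protein that binds the intracellular tail of APP. The genes were taken by name: Psen2, Ncstn, Aph1a and Psenen of gamma-secretase, Bace1 and Bace2 as beta-secretases, and Adam10, Adam17 and Adam9 as alpha-secretases. All 9 had a probe set, and 21 of the 22626 probe sets outside the controls were annotated to them, each to 1 of these genes alone. The series holds 10 Affymetrix mouse expression arrays, 1 for each male mouse of 6 months, of which 5 are labelled *p97FE65* wild type and 5 *p97FE65* null. The null allele removes the full-length isoform only. It was made in ES cells of another strain and then crossed into C57Bl/6J over 10 generations. Null mice can so keep sequence of the donor strain around FE65 on chromosome 7. The study found such sequence in null mice at Gprc5b and, on the other side of FE65, at Homer2. It did not map the whole retained region. Littermates were used, but the labels do not say which arrays come from a pair.

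An alpha-secretase cuts APP within the amyloid-beta sequence and so prevents that peptide from forming, whereas beta-secretase cuts at its start. Gamma-secretase, a complex of a presenilin, nicastrin, an Aph1 protein and Pen-2, then cuts the remaining stub inside the membrane, which sets free amyloid-beta and the intracellular tail to which FE65 binds. The same enzymes cut many other surface proteins of neurons and glia, among them Notch receptors.

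Array values are log2 expression after GC-RMA, which corrects for nonspecific binding by the GC content of the probes. They compare a probe set with itself across arrays, not probe sets with each other. Differences are given as labelled null minus labelled wild type, and their direction runs against that given by the study: at Gprc5b probe set 1451411_at the mice labelled null were 2.35-fold below those labelled wild type, where the study describes them as higher. In size, the differences at this probe set and at the FE65 probe sets below match those the study reports, with each direction reversed. By RT-PCR on forebrains, the study also found the region of this Gprc5b probe set higher in null mice. Brains of the donor strain mainly expressed the variant that holds this region. Whether the labels are exchanged was not tested. If they are, every difference given here has the opposite sign. Which genotype stands behind a label was not settled, so mice are named by their labels. FE65 itself (Apbb1) is read outside the deleted exon, so its probe sets do not show whether the exon is missing. Probe set 1423892_at read 10.85 to 11.13 in mice labelled wild type and 10.80 to 11.37 in mice labelled null, and 1423893_x_at 10.98 to 11.23 and 11.30 to 11.51. Both had the higher mean in mice labelled null, by 0.11 and 0.26 (log2), where the study describes them as lower in null mice. The median of an array was 3.01 to 3.14, and any 2 arrays correlated at 0.994 to 0.999. Markers of neurons and myelin, such as the neurofilament gene Nefl (mean 12.68, log2) and Mbp (mean 13.95), were read on all 10 arrays. They are shared by all brain tissue and do not check that it was cortex.

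No secretase probe set passed a test of difference between the labelled groups. Of the 21, 0 passed an adjusted p of 0.05 from limma, 0 had an unadjusted p under 0.05, and 0 had groups that did not overlap. Over all 22626 probe sets these shares were 0% (adjusted p), 3.67% (unadjusted p, 1.24% higher and 2.43% lower) and 0.623% (no overlap). The test of the study's methods, which does not share the spread between probe sets, called 0 of the 21 as well, both at an unadjusted p under 0.05 and after adjustment. In tissue RNA such as this, fewer cells of a type and less RNA per cell cannot be told apart. Of the fitted differences, 8 were above 0 and 13 below, with a median of -0.02 (log2), beside -0.00036 over all probe sets. The size of the difference had a median of 0.04 for the secretases and of 0.05 for all probe sets. Among probe sets with a mean of at least 5 (log2) these medians were 0.088 and 0.084. The difference of greatest size was that of Adam9, at -0.19 (SE 0.13), and the smallest unadjusted p was that of Aph1a probe set 1451554_a_at, at 0.183 by limma. A p that misses the threshold does not show equal levels, so the 95% confidence intervals are given below.

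**Figure D1:**
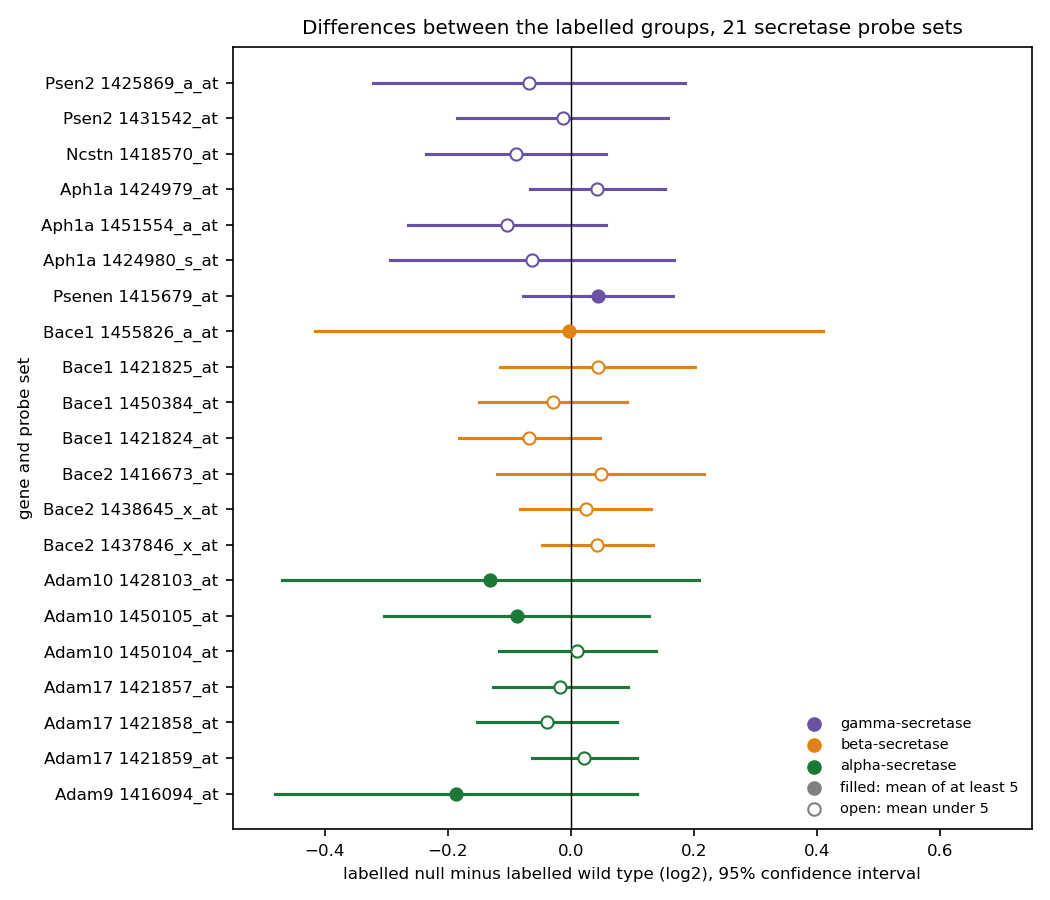
Labelled null minus labelled wild type (log2, horizontal axis) for each of the 21 secretase probe sets (vertical axis), with its 95% confidence interval from limma. Colours give the secretase, filled points a mean of at least 5 (log2) and open points a lower mean. All intervals include 0, and the widest, of Bace1 1455826_a_at, runs from -0.42 to 0.41.

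Only 5 of the 21 probe sets had a mean of at least 5 (log2): those of Psenen and Adam9, 2 of the 3 of Adam10 and 1 of the 4 of Bace1. These carry the measurement. The other 16 lay under 5, where GC-RMA values change little with the amount of transcript, so that a narrow interval there says little. This concerns every probe set of Psen2, Ncstn, Aph1a, Bace2 and Adam17. The files hold no detection calls, and a low value is not taken as absence of the transcript.

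The promoters of Psenen and Adam10 are shown as a description only. Whether a promoter relates to how these genes varied between arrays, described below, was not tested. The sequences are from RefSeq (GRCm38.p6) and run from 250 bases before a start site to 50 after it. Of the 9 genes, 6 had an entry in the table, with 8 promoters in all. Bace1, Bace2 and Adam9 had none. Capitals mark GC boxes (GGGCGG or its complement CCGCCC), E boxes (CACGTG) and CCAAT boxes (CCAAT or ATTGG), searched on both strands with overlaps counted. The upper line is that of Adam10 (chr9:70678732-70679031, plus strand) and the lower that of the outer of the 2 Psenen starts (chr7:30563578-30563877, minus strand).
Adam10: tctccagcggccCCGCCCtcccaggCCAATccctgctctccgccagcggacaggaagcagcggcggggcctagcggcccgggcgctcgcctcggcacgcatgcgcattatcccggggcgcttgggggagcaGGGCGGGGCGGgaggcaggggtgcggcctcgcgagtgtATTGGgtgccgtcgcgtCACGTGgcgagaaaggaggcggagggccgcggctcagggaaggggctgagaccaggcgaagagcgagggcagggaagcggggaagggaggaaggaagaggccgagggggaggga
Psenen: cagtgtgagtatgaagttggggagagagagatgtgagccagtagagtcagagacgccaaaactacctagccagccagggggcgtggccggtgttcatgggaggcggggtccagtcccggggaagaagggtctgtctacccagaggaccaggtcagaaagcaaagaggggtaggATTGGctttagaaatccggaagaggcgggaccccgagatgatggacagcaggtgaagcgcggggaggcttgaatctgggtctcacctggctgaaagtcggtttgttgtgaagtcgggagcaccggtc
The Adam10 promoter is 73.3% G and C and holds 32 CG pairs, 3 GC boxes, of which 2 overlap, 1 E box and 2 CCAAT boxes. The Psenen promoter is 58.3% G and C and holds 13 CG pairs, 0 GC boxes, 0 E boxes and 1 CCAAT box. The inner Psenen start, not printed, has the same share of G and C, 23 CG pairs, nearer to Adam10, and 0 of each box. Over 32851 promoters of the same length, the median was 52.7% G and C with 7 CG pairs, and 35.7% held a GC box, 7.15% an E box and 37.4% a CCAAT box. A match is a description of letters and not of a bound site.

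Among the gamma-secretase genes, Psenen, which encodes Pen-2, the small subunit that completes the complex and allows presenilin to mature, was the gene read brightly enough to carry weight. Its probe set 1415679_at was at 10.81, 10.61, 10.80, 10.75 and 10.74 (log2) in the mice labelled wild type and at 10.69, 10.76, 10.74, 10.82 and 10.91 in those labelled null. The groups overlapped along most of their range, with the lowest value in a mouse labelled wild type and the highest in a mouse labelled null. The means were 10.74 ± 0.08 (SD, n = 5 mice) and 10.78 ± 0.09 (SD, n = 5), a difference of 0.04 (SE 0.05; exact permutation test, two-sided, p = 0.413). The 95% confidence interval ran from 1.06-fold lower to 1.12-fold higher. The difference was 0.10 after quantile normalization and 0.01 without wild type replicate 2 or without null replicate 5. Psenen lies on chromosome 7, like FE65 and Gprc5b. In gene order it is 278th of the 958 measured genes there, while Homer2 is 531st, FE65 648th and Gprc5b 711th.

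Psen2 encodes the second presenilin, a catalytic subunit. Its probe set 1425869_a_at lay between 2.40 and 3.04 in the mice labelled wild type and between 2.44 and 2.77 in those labelled null, and 1431542_at between 2.43 and 2.82 and between 2.44 and 2.66. Both were dim and overlapped between the groups, with differences of -0.07 (SE 0.11) and -0.01 (SE 0.08). In both, the highest array was wild type replicate 2. Ncstn encodes nicastrin, the large subunit that admits substrates. Its probe set 1418570_at lay between 3.75 and 4.07 in the mice labelled wild type and between 3.77 and 3.93 in those labelled null, and its difference was -0.09 (SE 0.07; 95% confidence interval from -0.24 to 0.06). It reached an unadjusted limma p of 0.0319 without wild type replicate 5, with a difference of -0.14.

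Aph1a, which encodes a scaffold subunit of the complex, was read by 3 dim probe sets that did not share a sign. Their differences were 0.04 (SE 0.05) at 1424979_at, -0.10 (SE 0.07) at 1451554_a_at and -0.06 (SE 0.10) at 1424980_s_at. All 3 overlapped between the groups. The widest spread was that of 1424980_s_at in the mice labelled null, from 2.78 to 3.37. By the array maker's naming, a probe set ending in _a_at reads several transcripts of a gene, and those ending in _s_at and _x_at can share probes with other genes.

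Levels of the gamma-secretase subunits did not detectably follow each other from array to array. Among the 6 pairs of brightest probe sets of Psen2, Ncstn, Aph1a and Psenen, Pearson's r over the 10 arrays ran from -0.46 (Ncstn and Aph1a) to 0.36 (Aph1a and Psenen). The smallest p of the 6 (permutation test) was 0.176, and adjusted over the pairs 0.661. Spearman's rho for these pairs was -0.52 (permutation p = 0.132) and 0.42 (permutation p = 0.233). Without the 2 arrays farthest from the median of the first-named gene of each pair, r was -0.46 and 0.13. After quantile normalization, r was 0.69 for Aph1a and Psenen, -0.59 for Psen2 and Psenen, -0.57 for Psen2 and Aph1a and -0.16 for Ncstn and Aph1a. Although 0 pairs passed an adjusted p of 0.05 there (permutation test), these r thus depend on the processing. Of these 4 probe sets, 3 were dim.

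**Figure D2:**
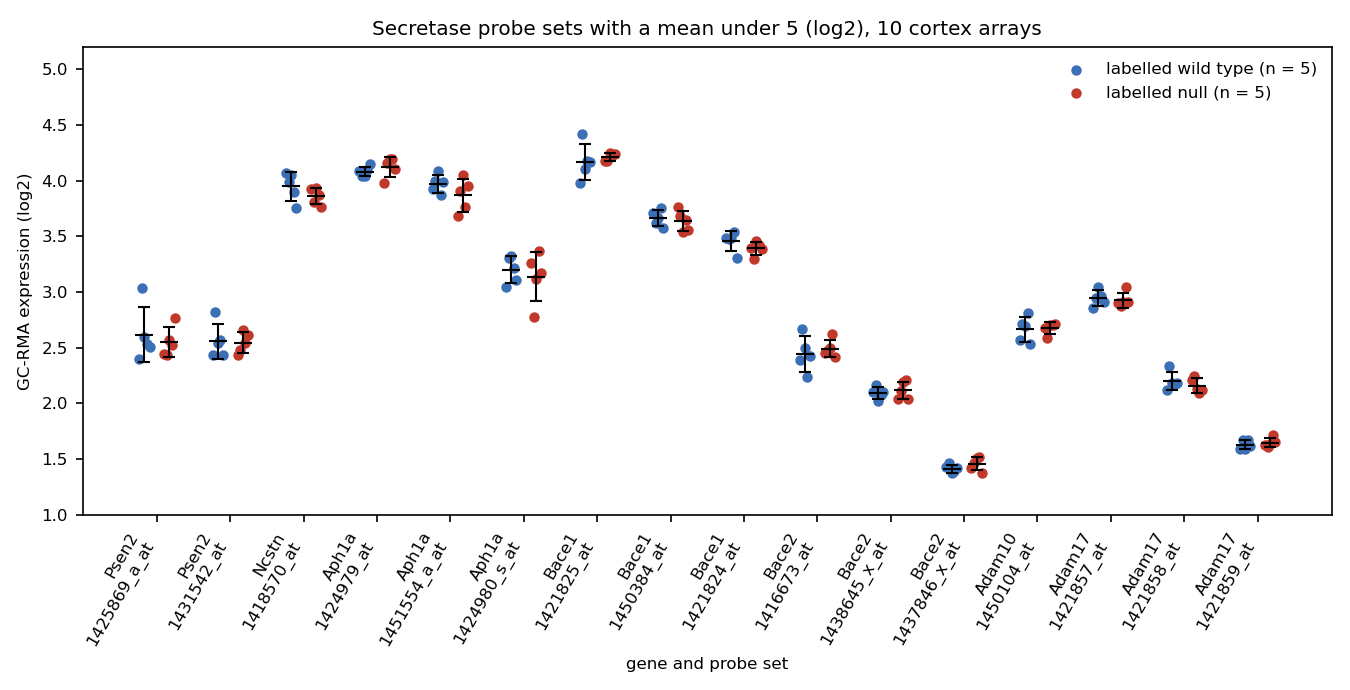
GC-RMA expression (log2, vertical axis) of the 16 secretase probe sets with a mean under 5 (horizontal axis), each mouse shown as a point (blue for the 5 labelled wild type, red for the 5 labelled null) and black bars showing mean and SD. The groups overlap for all 16, and the highest value is 4.42, of Bace1 1421825_at.

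Bace1, the beta-secretase of neurons, was read by a single bright probe set, which had the widest SD of the 5 bright ones. This probe set, 1455826_a_at, was at 6.93, 7.87, 7.40, 7.52 and 7.45 (log2) in the mice labelled wild type and at 7.03, 7.59, 7.30, 7.33 and 7.90 in those labelled null. Each group had a single low mouse, replicate 1, and each spanned nearly the whole range of the other. The means were 7.43 ± 0.34 (SD, n = 5) and 7.43 ± 0.33 (SD, n = 5), and the difference was -0.0030 (SE 0.19; exact permutation test, two-sided, p = 0.976). Its 95% confidence interval ran from 1.33-fold lower to 1.33-fold higher, so a change within that range was not excluded here. The other 3 Bace1 probe sets were dim, between 3.30 and 4.42 over all arrays, with differences of 0.04, -0.03 and -0.07. Of these, 1421824_at had an unadjusted limma p of 0.0404 without wild type replicate 5, with a difference of -0.11.

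Bace2, the relative of Bace1 that cuts APP mainly within the amyloid-beta sequence, was dim at all 3 probe sets. Over the 10 arrays, 1416673_at lay between 2.24 and 2.67, 1438645_x_at between 2.03 and 2.21, and 1437846_x_at between 1.37 and 1.52. Their differences were 0.05 (SE 0.08), 0.02 (SE 0.05) and 0.04 (SE 0.04), and the groups overlapped at each.

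Adam10, the main alpha-secretase of neurons, had group means that lay slightly lower in the mice labelled null at both bright probe sets, within the spread between mice. Probe set 1428103_at was at 9.19, 9.92, 9.77, 9.68 and 9.62 (log2) in the mice labelled wild type and at 9.15, 9.63, 9.63, 9.30 and 9.80 in those labelled null. Replicate 1 was the lowest of either group, and the groups overlapped. The means of 9.64 ± 0.28 (SD, n = 5) and 9.50 ± 0.27 (SD, n = 5) gave a difference of -0.13 (SE 0.15; exact permutation test, two-sided, p = 0.437), with a 95% confidence interval from 1.39-fold lower to 1.16-fold higher. Single mice moved it: leaving out wild type replicate 1 gave -0.24 and leaving out wild type replicate 2 gave -0.06. Of the mice labelled null, leaving out replicate 1 gave -0.04, replicate 4 -0.08 and replicate 5 -0.20. After quantile normalization it was -0.07.

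Adam10 probe set 1450105_at was at 7.81, 8.10, 8.11, 8.15 and 8.02 in the mice labelled wild type and at 8.05, 7.87, 7.82, 7.77 and 8.24 in those labelled null. The mice labelled null held both the lowest and the highest value. Its difference was -0.09 (SE 0.10), with a 95% confidence interval from 1.23-fold lower to 1.09-fold higher. Leaving out wild type replicate 1 gave -0.15, and of the mice labelled null, leaving out replicate 3 gave -0.06, replicate 4 -0.04 and replicate 5 -0.16. With array weights it was -0.15, and after quantile normalization -0.03. The dim probe set 1450104_at, between 2.54 and 2.81 over all arrays, was at 0.01 (SE 0.06).

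Adam9, a protease with alpha-secretase activity that also acts on Adam10, showed the difference of greatest size among the 21, which was within the spread between mice. Its probe set 1416094_at was at 8.86, 9.28, 9.20, 9.33 and 9.11 (log2) in the mice labelled wild type and at 8.86, 9.10, 8.74, 8.75 and 9.38 in those labelled null. Of the mice labelled null, 2 lay below all others, but null replicate 5 was the highest of all 10. The means were 9.15 ± 0.18 (SD, n = 5) and 8.97 ± 0.27 (SD, n = 5), a difference of -0.19 (SE 0.13; exact permutation test, two-sided, p = 0.238). The interval ran from 1.40-fold lower to 1.08-fold higher. Without null replicate 5 the difference was -0.29, with an unadjusted limma p of 0.0226 and an adjusted p of 0.661, the lowest adjusted p of any secretase probe set under the alternatives tried.

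Adam17, also known as TACE, the protease that sheds tumour necrosis factor and can act as an inducible alpha-secretase, was dim at its 3 probe sets. They lay between 2.85 and 3.05 (1421857_at), between 2.09 and 2.34 (1421858_at) and between 1.59 and 1.72 (1421859_at). The differences were -0.02, -0.04 and 0.02, with SEs of 0.05, 0.05 and 0.04, and all overlapped.

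**Figure D3:**
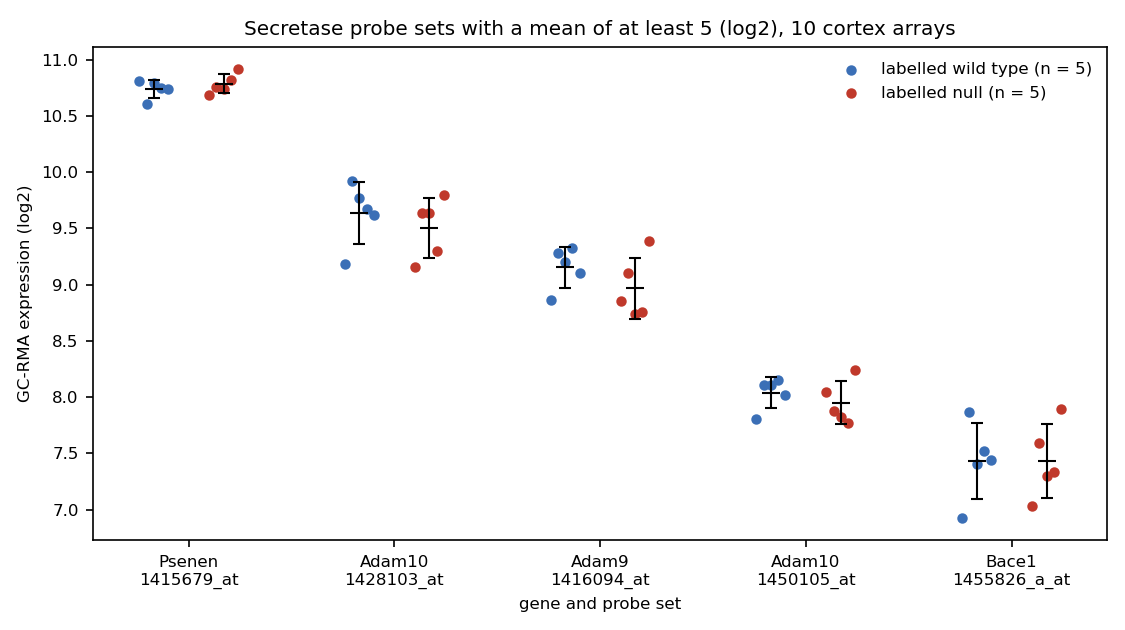
GC-RMA expression (log2, vertical axis) of the 5 secretase probe sets with a mean of at least 5 (horizontal axis), each mouse shown as a point (blue for the 5 labelled wild type, red for the 5 labelled null) and black bars showing mean and SD. The groups overlap for all 5, and the spread between mice is narrow for Psenen (SD 0.08 and 0.09) and wide for Bace1 (SD 0.34 and 0.33).

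To ask whether beta- and alpha-secretase transcripts changed unequally, the Bace1 value of 1455826_a_at minus the Adam10 value of 1428103_at was taken within each array. It was -2.26, -2.05, -2.37, -2.15 and -2.18 (log2) in the mice labelled wild type and -2.12, -2.04, -2.34, -1.97 and -1.90 in those labelled null. Of the mice labelled null, 3 lay above all those labelled wild type, and null replicate 3 was near the lowest. The mean was 0.13 higher in the mice labelled null (two-sided exact permutation p = 0.198), and the 95% confidence interval, from -0.08 to 0.34, included 0. Leaving out null replicate 3, the difference was 0.19 (exact permutation p = 0.0397). With the mean over all probe sets of each gene it was 0.06 (exact permutation p = 0.27).

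Bace1, Adam9 and Adam10 probe set 1428103_at varied together from array to array. With 1 array for each mouse, differences between mice and between arrays cannot be told apart. Adam10 probe set 1450105_at varied with Adam9 but passed no test with Bace1, and Psenen passed none. This was looked at after the values were seen, over the 10 pairs of the 5 bright probe sets, with p-values adjusted over these 10. Bace1 and Adam10 1428103_at had r = 0.87 over the 10 arrays (permutation test, p = 0.00098, adjusted p = 0.0098) and rho = 0.78 (permutation p = 0.0107, adjusted p = 0.0356). Bace1 and Adam9 had r = 0.78 (permutation p = 0.0085, adjusted p = 0.0283) and rho = 0.78 (permutation p = 0.0103, adjusted p = 0.0356). Taken as deviations from the means of the labelled groups, the same pairs had r = 0.90 and r = 0.85. Bace1 and Adam10 1450105_at had r = 0.59 (permutation p = 0.0789, adjusted p = 0.137) and rho = 0.64 (permutation p = 0.0542, adjusted p = 0.0904).

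Adam9 followed both Adam10 probe sets. With 1450105_at, r was 0.86 (permutation p = 0.0034, adjusted p = 0.017) and rho 0.87 (permutation p = 0.00232, adjusted p = 0.0232). With 1428103_at, r was 0.76 (permutation p = 0.014, adjusted p = 0.0351), but rho = 0.71 did not pass (permutation p = 0.0267, adjusted p = 0.0668). The Adam10 probe sets had r = 0.58 with each other (permutation p = 0.082, adjusted p = 0.137) and rho = 0.67 (permutation p = 0.0395, adjusted p = 0.079). Psenen had r from -0.09 to 0.06 with these probe sets (permutation p from 0.801 to 0.994). These values near 0 combine r below 0 with all 4 probe sets in the mice labelled wild type and above 0 with all 4 in those labelled null. The groups of 5 are too small for an r of their own, and the difference between them was not tested. Each r was also taken without the 2 arrays farthest from the median of the pair's first-named probe set. It was then 0.84 for Bace1 with Adam10 1428103_at, 0.70 for Bace1 with Adam9 and 0.75 for Adam10 1428103_at with Adam9. It was 0.79 for Adam10 1450105_at with Adam9 and 0.76 for Adam10 1428103_at with 1450105_at. For Bace1 with Adam10 1450105_at, a pair that had passed no test, it fell to 0.26. For Psenen it was 0.03 with Bace1, 0.03 with Adam10 1428103_at, -0.06 with Adam9 and -0.44 with Adam10 1450105_at.

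**Figure D4:**
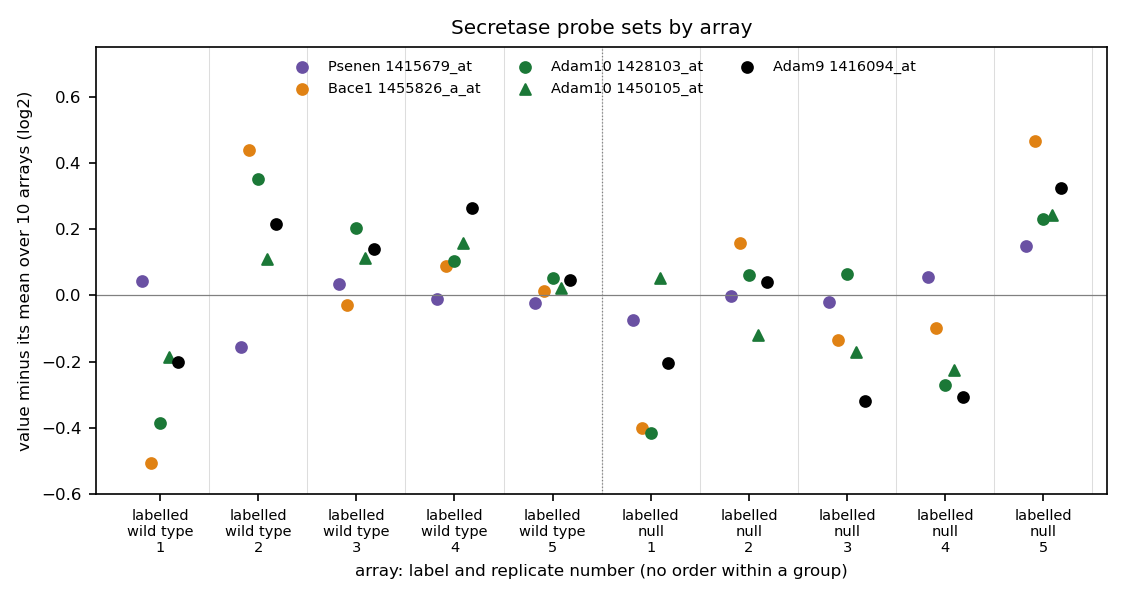
Value of each bright secretase probe set minus its mean over the 10 arrays (log2, vertical axis), by array (horizontal axis, label and replicate number, which have no order within a group). Bace1, both Adam10 probe sets and Adam9 lie above 0 in wild type replicate 2 and null replicate 5 and below 0 in wild type replicate 1, while Psenen lies between -0.15 and 0.15 throughout.

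Many other transcripts followed the same order of arrays. The first principal component of the 7827 probe sets with a mean of at least 5 held 44.9% of their variance. Its scores were highest in wild type replicate 2 and null replicate 5 and lowest in wild type replicate 1 and null replicates 1 and 4. It correlated with Adam10 1428103_at at r = 0.94 (rho = 0.95), with Bace1 at 0.86 (rho = 0.76), with Adam9 at 0.81 (rho = 0.81) and with Psenen at -0.10 (rho = -0.07), given as a description, since these probe sets enter it. Adam10 1428103_at had r over 0.7 with 20.8% of 4920 other genes, Adam9 with 18.3%, Bace1 with 18.2% and Psenen with 2.24%. The upper quartile of the arrays also moved with them (r = 0.72 for Bace1, 0.81 for Adam10 1428103_at and 0.89 for Adam9). The part of such array-wide differences in the correlations was not tested. After quantile normalization between the arrays, r was 0.79 for Bace1 with Adam10 1428103_at, 0.63 for Bace1 with Adam9, 0.53 and 0.59 for Adam9 with the Adam10 probe sets, 0.16 for Bace1 with Adam10 1450105_at, and 0.07 between the Adam10 probe sets. For Psenen it moved away from 0, to -0.18 with Bace1, -0.37 with Adam10 1428103_at, -0.61 with Adam10 1450105_at and -0.51 with Adam9. The values near 0 for Psenen thus depend on the processing. These r after normalization were not tested.

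The genes whose brightest probe sets were most like those of the secretases over the 10 arrays, among 4847 genes outside the lists used here, were Mrpl3, a protein of the mitochondrial ribosome, for Bace1 (r = 0.98, rho = 0.99), Ubr3, a ubiquitin ligase, for Adam10 (r = 0.98, rho = 0.98), Nectin3, a cell adhesion protein, for Adam9 (r = 0.95, rho = 0.95) and Gtf3a, a transcription factor of 5S RNA genes, for Psenen (r = 0.92, rho = 0.87). As the highest of so many, these r have no p. For Adam10, 136 of the genes had r over 0.9, for Bace1 63, for Adam9 37 and for Psenen 1.

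Of 91 listed partners, substrates, targets and related proteases, 82 were measured, each taken by its brightest probe set. Of these, 1 was higher and 2 were lower in mice labelled null at an unadjusted limma p under 0.05, which is 3.66% and compares with 3.94% of all 12393 genes (1.33% higher and 2.61% lower). After adjustment 0 of the 82 stayed under 0.05. Without null replicate 1, 7 of the 82 (8.54%) had an unadjusted limma p under 0.05, beside 4.14% of all genes. Their median difference was -0.03 (log2), beside -0.0021 over all genes.

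Among 14 measured ADAM partners and inhibitors, 1 was lower: Tspan17, a tetraspanin that escorts Adam10 out of the endoplasmic reticulum. It was at 6.58 in the arrays labelled wild type (from 6.31 to 6.82) and at 6.28 in those labelled null (from 6.15 to 6.45), so the groups overlapped. The difference of -0.30 (SE 0.10) had an unadjusted limma p of 0.0141 and an adjusted p of 0.999. Its unadjusted p stayed under 0.05 in all 17 alternatives, where its lowest adjusted p was 0.661. These refit the same arrays from which it was picked by its p, so they are not separate evidence. Next by p was Sfrp1, a secreted inhibitor of Adam10, which was dim, at 0.17 (SE 0.11).

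Among 12 measured Bace1 partners and sorting proteins, 1 was lower: Furin, the proprotein convertase that removes the prodomains of Bace1 and ADAM proteases. It was at 5.12 (from 5.06 to 5.17) and 5.03 (from 4.97 to 5.09), a difference of -0.09 (SE 0.04) with an unadjusted limma p of 0.0466 that stayed under 0.05 in 4 of 17 alternatives. Furin lies on chromosome 7, as the 520th of the measured genes. Next was Rtn4, a reticulon of the family that binds Bace1, at -0.10 (SE 0.06).

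Among 7 Notch target genes, which respond to the Notch tail that gamma-secretase releases, 1 was higher: Heyl, a transcriptional repressor. Its values were 4.25 to 4.31 in mice labelled wild type and 4.30 to 4.70 in mice labelled null, a slight overlap, with a difference of 0.18 (SE 0.07) and an unadjusted limma p of 0.0246, under 0.05 in all 16 alternatives in which it was tested. Its adjusted p was 0.999, and the lowest in these alternatives, which refit the arrays it was picked from, was 0.661. With a mean under 5, Heyl was left out where dim probe sets were dropped. Hes1, a further target, was at -0.07 (SE 0.06).

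None of 25 measured substrates had an unadjusted p under 0.05. App itself was at 13.01 in the arrays labelled wild type (from 12.86 to 13.17) and at 13.05 in those labelled null (from 12.99 to 13.13), a difference of 0.04 (SE 0.06; 95% confidence interval from -0.10 to 0.18). The substrates with the smallest p were Lrp1, a lipoprotein receptor (-0.18, SE 0.13), and Epha4, a receptor of ephrins (0.17, SE 0.14). Of 8 measured gamma-secretase partners, the nearest were Rab11a, a GTPase of recycling endosomes (-0.21, SE 0.11), and Arrb2, an arrestin (-0.12, SE 0.06). Of 7 amyloid-beta degrading enzymes and related proteins, they were Ece1, the endothelin-converting enzyme (-0.10, SE 0.10), and Ctsb, a lysosomal protease (-0.14, SE 0.14). All 9 other ADAM family genes were dim, and Adam12 (0.11, SE 0.05) and Adam28 (0.04, SE 0.04) came first by p.

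**Figure D5:**
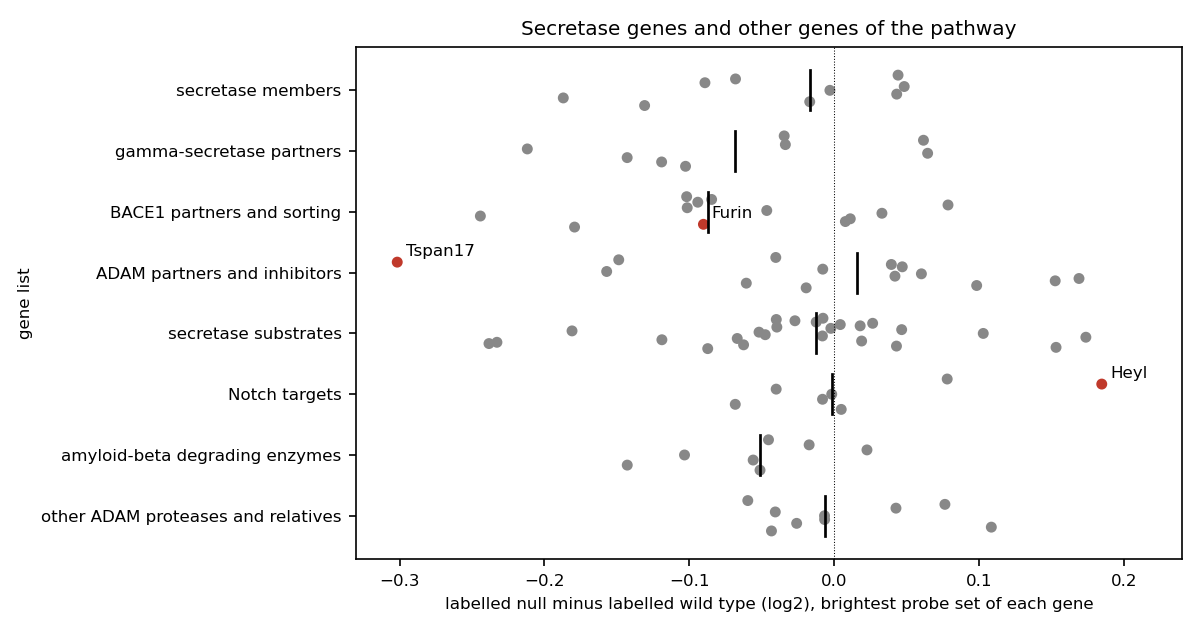
Labelled null minus labelled wild type (log2, horizontal axis) at the brightest probe set of each gene, by list (vertical axis), with the median of a list as a black line. Red points have an unadjusted limma p under 0.05: Tspan17 at -0.30, Furin at -0.09 and Heyl at 0.18. No point passed the adjusted threshold.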

How the data were processed

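Cerebral cortex RNA of 10 mice was measured on 10 arrays. The deposited values are log2 expression per probe set, which the authors made with GC-RMA (version not given in the sources used). Groups were taken from the sample titles. The 64 control probe sets were dropped, and the platform annotation gave 1 gene for 20380 of the other 22626, several for 691 and none for 1555. Symbols and chromosomes are from RefSeq, assembly GRCm38.p6. Differences were fitted in R 4.3.3 with limma 3.58.1 (no filter, no pairing), with Benjamini-Hochberg adjustment over all 22626. The fit was tested on simulated data. Single values were compared with exact permutation tests, and correlations with 100000 resamples. All secretase probe sets are given, and from each other list the 2 genes with the smallest p. The members and lists were chosen with earlier results of these data known. Precision is limited by how many arrays there are, and p-values measure the spread between these mice, each read on 1 array. The alternatives were a replicate block, median centring, quantile normalization, dropping probe sets whose mean was under 5, a robust prior with an intensity trend, weights for arrays, the methods' t-test and leaving out each array.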

Additional observations from a re-analysis of the deposited data

Results flagged for a closer look

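Adam17 probe set 1421857_at was at 3.05 (log2) in null replicate 4, while the other mice labelled null lay between 2.87 and 2.91. The gap was 0.769 of the group's range, above Dixon's critical value of 0.71 for 5 samples. The probe set is dim. It was the 1 group of 44 tested that stood out in this way, and chance gives about 1 in 20.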

How the results depend on the processing

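No secretase probe set passed an adjusted limma p of 0.05 under any alternative. At an unadjusted p under 0.05 the count was also 0 (of 21, or of the 5 with a mean of at least 5) under each alternative other than leaving out single arrays, where it ran from 0 to 2 (2 without wild type replicate 5, 1 without null replicate 5). The median difference of -0.02 became -0.088 over the 5 probe sets with a mean of at least 5, where the median of all probe sets kept was -0.05, and ran from -0.0448 to 0.011 without single arrays. Other pathway genes with an unadjusted p under 0.05, 3 in all, were 1 of 41 (2.44%, beside 4.19% of all genes) among probe sets with a mean of at least 5, 6 of 82 (7.32%, beside 6.79%) with array weights, and 2 to 7 without single arrays. They were 7 without null replicate 1 (8.54%, beside 4.14%), 6 without null replicate 5 (7.32%, beside 7.67%) and 5 without wild type replicate 1 (6.1%, beside 5.46%). The cause of these shifts was not tested. Bace1 minus Adam10 was 0.13, and 0.0852 to 0.193 without single arrays (0.193, exact permutation p = 0.0397, without null replicate 3). The pairs of gamma-secretase subunits past an adjusted p of 0.05 numbered 0 throughout, also 0 without single arrays. With the replicate number as a block, 0 secretase probe sets had an unadjusted p under 0.05 (smallest 0.0694), 5 other pathway genes did (1 higher and 4 lower; 6.1%, beside 5.2% of all genes), and Bace1 minus Adam10 stayed at 0.13 (p = 0.0589 in that linear model, not an exact test). Same-numbered arrays deviated together with r from 0.07 to 0.54, over 0.1 in 4 of 5 pairs. Of the 5 arrays labelled null, 1 correlated best with its own number. Low correlations cannot show that the numbers are not littermate pairs. As the labels name no pairs, the main fit used no pairing. The sign of Bace1 1455826_a_at turned under 7 of 17 alternatives, while Psenen, Adam9 and the bright Adam10 probe sets kept theirs in all 17. Low signal limits the 16 dim probe sets.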

Other observations

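Cell type markers, with each gene read at its brightest probe set, gave the surroundings of these values. Over all 12393 genes, 3.94% had an unadjusted limma p under 0.05, and 2.61% had one and lay lower. Of 7 measured neuron markers, 3 had an unadjusted limma p under 0.05 and lay lower in mice labelled null, namely the dim splicing factor Rbfox3 (-0.37, SE 0.12) and the neurofilament chains Nefl (-0.20, SE 0.07) and Nefm (-0.28, SE 0.10). The other 4 were Snap25 (-0.09, SE 0.08), Gad1 (-0.11, SE 0.09), Syt1 (0.07, SE 0.15) and Stmn2 (0.01, SE 0.06). Of 8 oligodendrocyte markers, 2 were lower, Mbp (-0.23, SE 0.07) and Cldn11 (-0.52, SE 0.22), and all 8 had differences below 0, with a median of -0.20. Their summed level (log2) was 14.40 to 14.83 in mice labelled wild type and 14.31 to 14.48 in mice labelled null. Of 6 endothelial markers 1 was lower, Egfl7 (-0.20, SE 0.08). None of 7 astrocyte, 7 microglia, 4 choroid plexus and 4 striatum markers had an unadjusted p under 0.05, and no marker passed an adjusted p of 0.05 from limma.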
